A study of Mus musculus with 14 samples.

Results

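The genes described here are the 7 mouse sirtuins, Sirt1 to Sirt7, and 3 enzymes of the NAD+ salvage pathway that supplies them, Nampt, Nmnat1 and Nmnat3. They were chosen by name, as a family and its supply of cofactor, and make up 10 of the 54532 genes in the deposited count tables. Sirtuins are enzymes that remove acetyl and other acyl groups from lysines and use up NAD+ in doing so. SIRT1, SIRT6 and SIRT7 are mainly nuclear, SIRT2 is mainly cytosolic, and SIRT3, SIRT4 and SIRT5 are mitochondrial. NAMPT is the rate-limiting enzyme that turns nicotinamide, the product left by sirtuins, back into nicotinamide mononucleotide, and NMNAT1 in the nucleus and NMNAT3 in mitochondria make NAD+ from it.

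The study measured RNA by RNA-seq after loss of TRF2, the shelterin protein encoded by Terf2 (Trf2), which leaves telomeres unprotected and drives cells into senescence. Senescent iMEFs were 3 cultures of Trf2F/F;Rosa-CreER fibroblasts from mouse embryos, immortalized with SV40 and collected 7 days after 4-hydroxytamoxifen (4HT) was added. Control iMEFs were 3 cultures of the same Trf2F/F;Rosa-CreER genotype given vehicle. Without a 4HT-treated group that kept Terf2, effects of 4HT or of Cre activity cannot be told apart from those of TRF2 loss in these cells. Senescent livers came from 4 Trf2F/F;Rosa-mTmG mice given AAV8-Tbg-Cre, a virus whose Cre is driven by a hepatocyte promoter, and were collected 6 to 7 weeks later. Control livers came from 4 Rosa-mTmG mice given the same AAV8-Tbg-Cre. The lines were kept on a C57BL/6J background, and the age and sex of the mice are not given in the labels. RNA came from whole liver, in which cells other than hepatocytes keep Terf2, and fewer cells of a type and less RNA per cell cannot be told apart in such bulk samples.

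Libraries held 15364450 to 20177401 reads in genes. Terf2 averaged 0.25 ± 0.048 CPM (reads scaled to library size, with TMM factors set within a tissue) in senescent iMEFs and 38.3 ± 0.78 CPM in control iMEFs (SD, n = 3 each). In livers Terf2 averaged 3.82 ± 1.12 CPM in senescent and 12.6 ± 1.35 CPM in control animals (SD, n = 4 each). Summed hepatocyte markers reached 87898 to 107057 CPM in senescent livers and 79114 to 90870 CPM in control livers, while no iMEF library exceeded 0.401 CPM and Alb and Ttr had 0 reads there. Summed fibroblast markers were 6137 to 7210 CPM in senescent iMEFs, against 16371 to 17436 CPM in control iMEFs, and 6 of the 8 markers fell and 1 rose (21.2% of all genes tested in iMEFs fell and 18.6% rose). Reads from the mitochondrial genome took 2.32% of senescent iMEF replicate 3, against 0.599% to 0.853% of the other 5 iMEF libraries. The part of the marker and mitochondrial shifts in the results below was not tested, beyond the values given without single libraries.

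Promoter sequence is shown for the nuclear deacetylase gene Sirt1, which was higher in senescent iMEFs, and for Nampt, which had the highest level per kb of all 10 genes in iMEFs. Both come from RefSeq (GRCm38.p6) and read 5′ to 3′ toward the start site on the gene's own strand. Capitals mark GGGCGG, the GC box bound by SP1, on either strand, and CACGTG, the E-box bound by MYC and by the clock proteins CLOCK and BMAL1. The Sirt1 window is chr10:63339051-63339285 on the minus strand, cut short of bases that an annotated transcript covers, and the Nampt window is chr12:32820085-32820334 on the plus strand.
Sirt1: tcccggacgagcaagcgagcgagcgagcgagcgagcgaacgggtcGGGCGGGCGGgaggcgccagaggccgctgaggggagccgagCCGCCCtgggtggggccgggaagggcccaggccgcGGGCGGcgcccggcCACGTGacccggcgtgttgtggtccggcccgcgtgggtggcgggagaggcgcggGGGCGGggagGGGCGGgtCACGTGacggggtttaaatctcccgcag
Nampt: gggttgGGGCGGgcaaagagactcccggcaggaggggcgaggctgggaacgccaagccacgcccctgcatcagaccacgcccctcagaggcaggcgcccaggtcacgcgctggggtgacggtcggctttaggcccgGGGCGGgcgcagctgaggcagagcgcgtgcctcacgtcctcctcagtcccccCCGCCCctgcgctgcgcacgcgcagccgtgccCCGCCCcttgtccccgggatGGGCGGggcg

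These windows lie upstream of the start sites that RefSeq gives. In GENCODE, longer transcripts extend Sirt1 to 63381704 on chromosome 10 and let Nampt begin at 32819545 on chromosome 12, so both windows lie within the gene spans given below. Among the members, the RefSeq window lies wholly upstream of the GENCODE span for Sirt3 and Nmnat1 alone. Among the 250 bases upstream of each gene's first RefSeq start, CACGTG occurred in 1 of the 10 members, Sirt1, with 2 matches, and in 6.05% of all 27025 promoters. GGGCGG occurred in 7 of the 10 members, with 6 matches in Sirt1 and 5 in Nampt, and in 32.9% of all promoters. CCAAT was found in 2 members (34.5% of all promoters), while TTAGGG (9.25%), the letters of the telomere repeat, and TGACGT (6.56%) were found in none. GC content of the 10 windows ran between 45.6% and 79.2%, beside a median of 52.0% over all promoters. Each window held 9 to 39 CpG dinucleotides, above the median of 6 over all promoters in all 10. The Sirt6 window overlaps annotated exons and is not printed. Positions below are from GENCODE M21 (GRCm38, the mm10 build). Sirt2 lies at chr7:28766735-28788661, Sirt3 at chr7:140863666-140882309, Sirt4 at chr5:115478010-115484725, Sirt5 at chr13:43365496-43395203 and Sirt7 at chr11:120618372-120625240. Nampt lies at chr12:32819545-32853349, Nmnat1 at chr4:149467572-149485202 and Nmnat3 at chr9:98287435-98420438.

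Senescent and control iMEFs differed in 2 nuclear sirtuins, in opposite directions. Sirt6 fell and Sirt1 rose in senescent iMEFs, and the other 8 members did not pass the test. At an adjusted p of 0.05 in edgeR's quasi-likelihood test, 39.8% of the 13561 genes tested were called in this comparison, 18.6% higher and 21.2% lower, so the members' 2 of 10 was below the share over all genes. The median log2 fold change of the members was 0.04, beside 0.00 over all genes, and the median size of change was 0.26, beside 0.28 over all genes.

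SIRT6 is a chromatin deacetylase that acts at telomeres and at DNA breaks. Its gene (ENSMUSG00000034748), at chr10:81621785-81627797 on the minus strand, had 12.1, 11.3 and 12.6 CPM in senescent iMEFs, against 17.7, 20.3 and 16.2 CPM in control iMEFs. The 3 senescent cultures lay close together and all of them were below the lowest control. The fitted log2 fold change was -0.59 (SE 0.12, 95% CI -0.86 to -0.33, adjusted p = 0.0022 in edgeR's quasi-likelihood test). Leaving out each library in turn moved this value between -0.67 and -0.50, with an adjusted p of 0.0181 at most, and Sirt6 was also called by every other alternative run.

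SIRT1 is the nuclear deacetylase of p53, FOXO proteins and PGC-1α. Its gene (ENSMUSG00000020063), at chr10:63319005-63381704 on the minus strand, had 65.1, 71.0 and 65.0 CPM in senescent iMEFs and 48.3, 53.5 and 55.8 CPM in control iMEFs. The groups did not overlap. Sirt1 rose by 0.35 on the log2 scale (SE 0.09, 95% CI 0.16 to 0.54, adjusted p = 0.0078 in edgeR's quasi-likelihood test). Without control replicate 1, the lowest control, the log2 fold change was 0.29 and the adjusted p from edgeR was 0.0506, so the call did not hold there. That fit had fewer controls and called 3979 genes, against 5400 with all libraries. The loss of the call thus cannot be laid on the values of that library alone.

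Sirt7, which encodes a nucleolar deacetylase of histone H3, stood at the edge of the threshold. It had 20.6, 20.3 and 29.3 CPM in senescent iMEFs, against 18.4, 18.5 and 17.4 CPM in control iMEFs. The groups did not overlap, and senescent replicate 3 was far above the other 2 senescent cultures. The log2 fold change was 0.37 (SE 0.14, adjusted p = 0.0523 in edgeR's quasi-likelihood test), and without senescent replicate 3 it was 0.19 (adjusted p = 0.168). Without senescent replicate 1 or 2 the adjusted p was 0.031 and 0.0283, and DESeq2 gave 0.035 for Sirt7. Mafg, a small MAF transcription factor gene that shares 124 exonic bases with Sirt7 on the same strand, had a log2 fold change of 0.29 in the same cultures (adjusted p = 0.0374 in edgeR). Whether reads in the shared stretch were split or dropped is not stated in the sources used here.

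Sirt2, the cytosolic tubulin deacetylase, had 69.3, 61.7 and 61.3 CPM in senescent iMEFs and 76.3, 75.2 and 69.1 CPM in control iMEFs. Its groups touched, since the highest senescent culture lay just above the lowest control, and its log2 fold change of -0.20 (SE 0.09) had an adjusted p of 0.0907 in edgeR. The mitochondrial sirtuins had fewer reads than the other sirtuins in these fibroblasts, counted without regard to gene length. Sirt3, the main mitochondrial deacetylase, had 4.13, 3.47 and 4.53 CPM in senescent iMEFs and 5.03, 4.44 and 3.20 CPM in control iMEFs. Sirt5, a desuccinylase, had 3.6, 3.96 and 4.76 CPM in senescent iMEFs and 5.52, 4.39 and 3.04 CPM in control iMEFs. Sirt4, a regulator of glutamate dehydrogenase, had 7.84, 5.18 and 11.1 CPM in senescent iMEFs and 7.40, 7.32 and 5.72 CPM in control iMEFs. All 3 overlapped between the groups. Their log2 fold changes were -0.06 (95% CI -0.51 to 0.40) for Sirt3, -0.07 (95% CI -0.57 to 0.42) for Sirt5 and 0.24 (95% CI -0.26 to 0.74) for Sirt4, and from 213 to 424 reads per group lay behind each of them.

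None of the salvage enzymes passed the test in iMEFs. Nampt had 130.2, 147.5 and 114.5 CPM in senescent iMEFs and 112.6, 115.8 and 129.3 CPM in control iMEFs, with overlap. Its log2 fold change was 0.13 (SE 0.10, adjusted p = 0.305 in edgeR), and 0.23 without senescent replicate 3 (adjusted p = 0.0315), the library with the high mitochondrial share. Nmnat1 had 7.35, 8.22 and 7.17 CPM in senescent iMEFs and 6.08, 6.81 and 5.72 CPM in control iMEFs, which did not overlap, with a log2 fold change of 0.29 (SE 0.15, adjusted p = 0.140 in edgeR). Nmnat3 had 3.38, 3.53 and 3.61 CPM in senescent iMEFs and 5.80, 4.84 and 3.41 CPM in control iMEFs. The spread lay almost wholly among the control cultures of Nmnat3, whose log2 fold change was -0.41 (SE 0.21, adjusted p = 0.144 in edgeR) and -0.60 without control replicate 3 (adjusted p = 0.0344). Of the 10 members, 4 (Sirt1, Sirt6, Sirt7 and Nmnat1) did not overlap between the groups, where 50.6% of all genes tested did not.

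**Figure D1:**
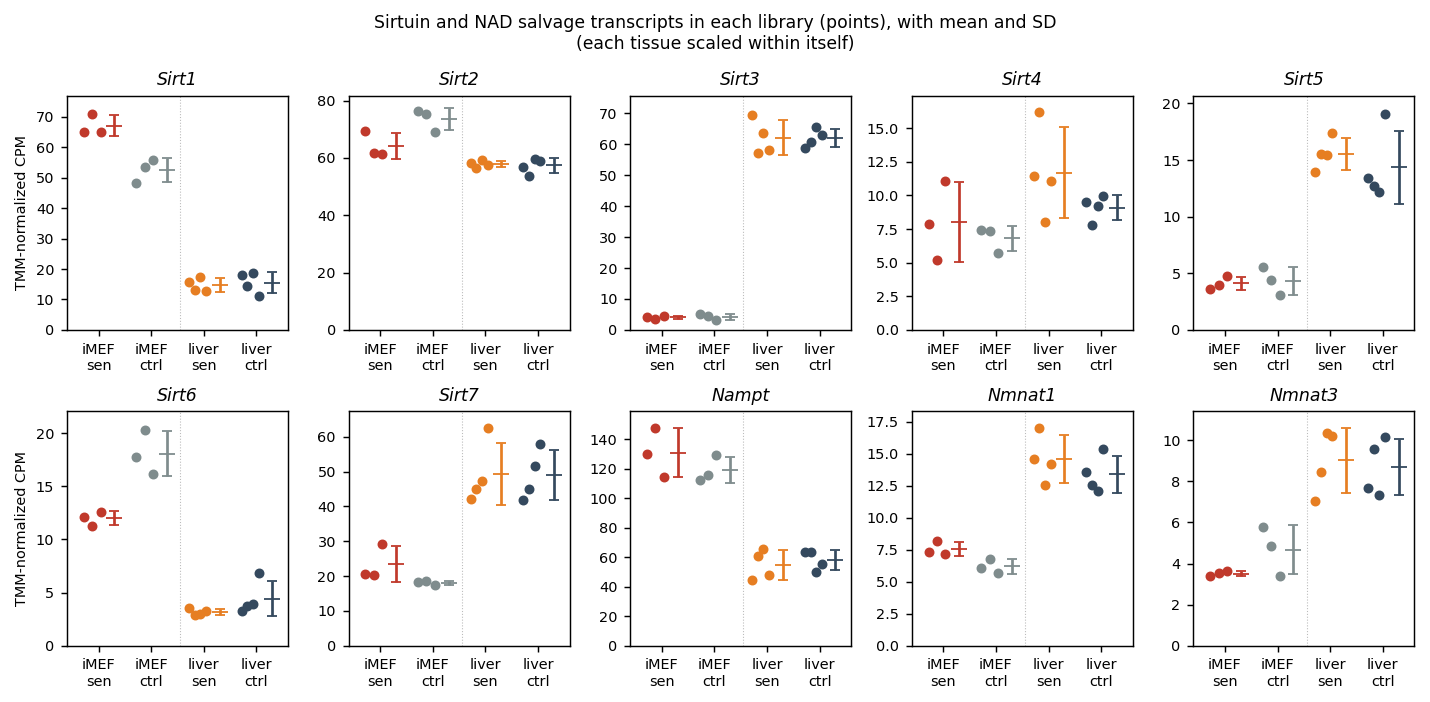
TMM-normalized CPM of each member (y axis, linear from 0) in every library (points), with the mean and SD beside them, for senescent and control iMEFs (n = 3 each) and senescent and control livers (n = 4 each). Each tissue was scaled within itself, so heights are compared within a tissue. The senescent iMEFs sit at 11.3 to 12.6 CPM for Sirt6, below all 3 controls, and the livers overlap in every panel.

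In livers, no member passed the threshold. None of the 10 was called (0.343% of the 14270 genes tested in livers were called, 0.308% higher and 0.035% lower), none had an unadjusted p under 0.05 in edgeR, and DESeq2 and limma-voom called none either. All 10 overlapped between the groups, and 4.51% of all genes tested did not overlap. The median size of change was 0.08 on the log2 scale for the members, beside 0.13 over all genes. The 95% interval lay within 1 on the log2 scale for 9 members and within 0.5 for 8.

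Sirt6 had the largest change of the 10 in livers. It had 3.58, 2.91, 2.99 and 3.28 CPM in senescent livers, against 3.29, 3.69, 3.89 and 6.83 CPM in control livers. Control replicate 4 stood well above the rest, and the other 7 livers lay between 2.91 and 3.89 CPM. The log2 fold change was -0.47 (SE 0.26, 95% CI -1.03 to 0.09, adjusted p = 0.718 in edgeR), and without control replicate 4 it was -0.18. At 44 to 123 reads per library, a change of the size seen in iMEFs lay inside the interval and could not be told from none. Sirt4 had 11.5, 16.2, 8.03 and 11.1 CPM in senescent livers and 9.48, 7.80, 9.18 and 9.93 CPM in control livers. Senescent replicate 2 was the highest of the 8, and the log2 fold change of 0.36 (SE 0.19, adjusted p = 0.713 in edgeR) was 0.16 without it.

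Sirt1 had 15.9, 13.1, 17.3 and 12.8 CPM in senescent livers and 18.0, 14.4, 18.6 and 11.2 CPM in control livers. The controls spanned the senescent values, and the log2 fold change was -0.08 (95% CI -0.45 to 0.29). Sirt3 had 69.5, 57.2, 63.7 and 58.0 CPM in senescent livers and 58.7, 60.8, 65.6 and 63.1 CPM in control livers, with a log2 fold change of 0.00 (95% CI -0.19 to 0.20). Sirt2 had 58.3, 56.4, 59.2 and 57.5 CPM in senescent livers and 56.9, 53.7, 59.8 and 59.0 CPM in control livers, the least scattered of the members, with a log2 fold change of 0.01 (95% CI -0.15 to 0.18). For these 2 genes a change past 0.20 on the log2 scale in either direction lay outside the interval.

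Sirt7 spanned 42.3 to 62.4 CPM in senescent livers and 41.9 to 57.8 CPM in control livers, with a log2 fold change of 0.01 (95% CI -0.29 to 0.31). Sirt5 spanned 13.9 to 17.4 CPM in senescent livers and 12.2 to 19.1 CPM in control livers, with a log2 fold change of 0.11 (95% CI -0.22 to 0.45). Nampt had 44.3, 60.9, 65.7 and 48.2 CPM in senescent livers and 63.2, 63.8, 49.6 and 55.6 CPM in control livers. Its 2 lowest livers were senescent and the highest was senescent too, and the log2 fold change was -0.08 (95% CI -0.38 to 0.21). Nampt is a target of the circadian clock in mouse liver, and the clock output gene Dbp ranged from 0.752 to 25.9 CPM among senescent livers and from 1.52 to 17.2 CPM among control livers. The part of the clock in the spread of Nampt was not tested. Nmnat1 spanned 12.5 to 17.1 CPM in senescent livers and 12.1 to 15.4 CPM in control livers (log2 fold change 0.12, 95% CI -0.16 to 0.40). Nmnat3 spanned 7.05 to 10.4 CPM in senescent livers and 7.36 to 10.2 CPM in control livers (log2 fold change 0.05, 95% CI -0.32 to 0.43).

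**Figure D2:**
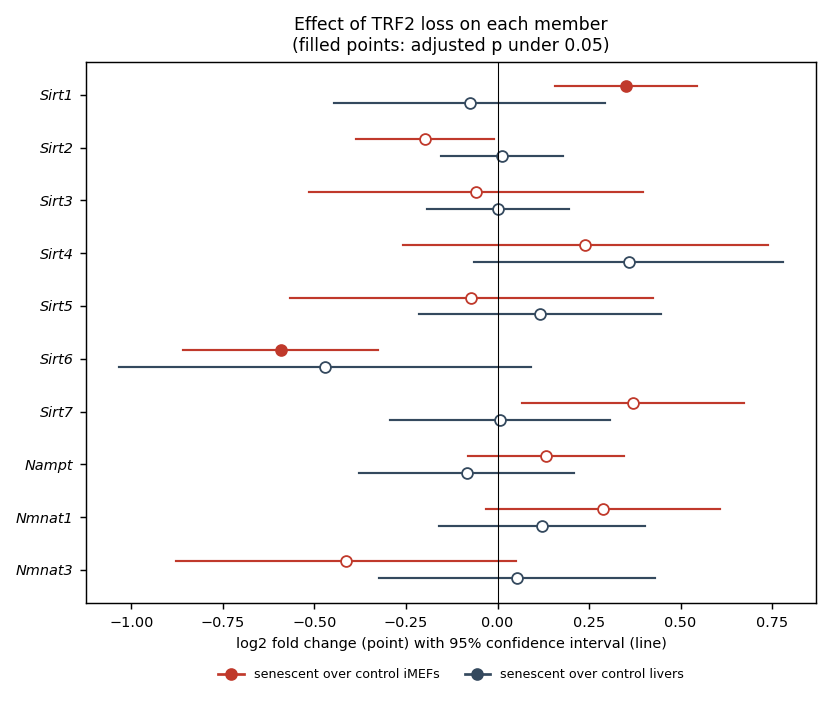
Log2 fold change (x axis, points) with its 95% confidence interval (lines) for each member, senescent over control iMEFs in red and senescent over control livers in dark blue. Filled points passed an adjusted p of 0.05 in edgeR, which were Sirt1 at 0.35 and Sirt6 at -0.59 in iMEFs. The longest liver interval is that of Sirt6, -1.03 to 0.09.

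The difference between the effects was tested in 1 fit over the 14 libraries. It was called for 0 of the 10 members, where 17.1% of the 11693 genes tested in both tissues were called, 9.69% with a positive and 7.41% with a negative difference. No member had an unadjusted p under 0.05 for it in edgeR, and DESeq2 and limma-voom called none. For Sirt1 the effect in livers minus that in iMEFs was -0.43 (SE 0.21, 95% CI -0.87 to 0.01, adjusted p = 0.173 in edgeR). Without control liver replicate 4, the lowest liver for Sirt1, it was -0.55 with an adjusted p of 0.0405. For Sirt6 the difference was 0.12 (95% CI -0.51 to 0.74). The call of Sirt1 and Sirt6 in iMEFs and not in livers is thus not shown to be a difference between the tissues.

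The make-up of the sirtuins separated the tissues. Within iMEFs the shares of 4 of the 7 did not overlap between senescent and control cultures, where 50.6% of all genes tested did not overlap in CPM. Levels of different genes were compared as CPM per kb of exon, as shares of the summed level of the 7 sirtuins within a library, a measure that does not depend on the scaling between libraries. The mitochondrial sirtuins made up 41.7% ± 2.92 in senescent livers and 39.4% ± 0.65 in control livers (SD, n = 4 each), and 12.0% ± 2.98 in senescent iMEFs and 10.96% ± 1.56 in control iMEFs (SD, n = 3 each). Every liver was at or above 38.6% and every iMEF culture at or below 15.1%. In livers most of this was Sirt3, and in iMEFs the largest part was Sirt4. In iMEFs Sirt4 took 8.53% ± 2.75 in senescent and 7.32% ± 0.75 in control cultures. Sirt4 took 11.4% ± 3.33 in senescent and 9.04% ± 0.65 in control livers. Sirt3 took 24.3% ± 2.48 in senescent livers and 24.8% ± 1.19 in control livers, and 1.74% ± 0.15 in senescent iMEFs and 1.82% ± 0.35 in control iMEFs.

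The nuclear sirtuins took 31.5% ± 3.06 in senescent livers and 33.4% ± 1.39 in control livers, and 55.2% ± 2.40 in senescent iMEFs and 51.3% ± 2.37 in control iMEFs. The order within them differed between the tissues. Sirt7 led in livers, with 22.3% ± 3.57 in senescent and 22.6% ± 1.83 in control animals, against 11.6% ± 2.03 in senescent and 9.09% ± 0.16 in control iMEFs. Sirt1 led in iMEFs, with 32.5% ± 3.19 in senescent and 25.5% ± 2.65 in control cultures, against 6.48% ± 1.07 in senescent and 7.01% ± 1.70 in control livers. Sirt6 took 11.1% ± 0.13 in senescent iMEFs and 16.7% ± 1.21 in control iMEFs. The shares of Sirt1, Sirt2, Sirt6 and Sirt7 did not overlap between senescent and control iMEFs. Those of Sirt1 and Sirt7 were higher and those of Sirt2 and Sirt6 lower in senescent cultures, while those of the mitochondrial sirtuins overlapped. Shares of a library add up to a fixed total, so a higher share of some lowers the others. In CPM, Sirt2 overlapped between senescent and control iMEFs. With the longest coding transcript as the length, chosen after the values were seen, the mitochondrial sirtuins took 45.9% in senescent and 44.8% in control livers, and 11.7% in senescent and 10.9% in control iMEFs. On that length Sirt1 took 20.5% in senescent and 15.9% in control iMEFs, near Sirt7 at 18.2% in senescent and 14.02% in control iMEFs. In livers it gave Sirt1 2.96% in senescent and 3.19% in control animals. In iMEFs it gave Sirt4 5.97% in senescent and 5.06% in control cultures, and Sirt3 3.39% in senescent and 3.49% in control cultures. With merged exons, Sirt2 was between 25.8% and 28.3% in all livers, 32.8% ± 2.78 in senescent iMEFs and 37.7% ± 1.013 in control iMEFs.

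**Figure D3:**
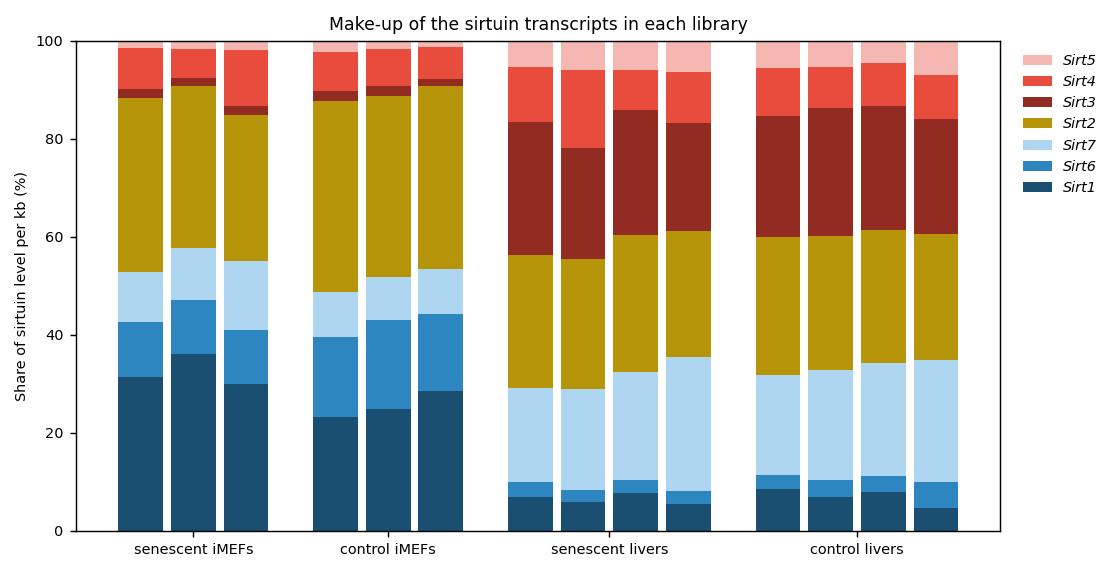
Share of each sirtuin in the summed sirtuin level of a library (y axis, percent, levels as CPM per kb of exon), 1 bar per library, grouped as senescent iMEFs, control iMEFs, senescent livers and control livers. Blue marks nuclear, gold cytosolic and red mitochondrial sirtuins. The mitochondrial share is at least 38.6% in each liver and at most 15.1% in each iMEF culture.

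Ordered by level per kb, Nampt led in iMEFs, with 25.9 ± 3.27 CPM per kb in senescent and 23.6 ± 1.75 CPM per kb in control cultures. Sirt2 (12.7 ± 0.90) and Sirt1 (12.6 ± 0.65) followed in senescent iMEFs and overlapped, while Sirt2 (14.6 ± 0.77) lay above Sirt1 (9.86 ± 0.72) without overlap in control iMEFs. Sirt7, Sirt6 and Sirt4 came next in senescent iMEFs, each overlapping its neighbour in the order, and Sirt6, Sirt7 and Sirt4 in control iMEFs, which did not overlap. Nmnat1 was at 2.5 ± 0.19 CPM per kb in senescent and 2.04 ± 0.18 CPM per kb in control iMEFs, and Nmnat3, Sirt3 and Sirt5 were the lowest in both groups, all under 1 CPM per kb on average and overlapping. In livers, Sirt2, Nampt, Sirt3 and Sirt7 formed the top, between 9.58 and 11.5 CPM per kb on average in senescent and 9.53 and 11.5 in control animals, and each overlapped the next. Sirt6 was the lowest, with 1.15 ± 0.11 CPM per kb in senescent and 1.59 ± 0.58 CPM per kb in control livers. With the longest coding transcript as the length, Sirt2 came before Nampt and Sirt7 before Sirt6 in both iMEF groups, and Sirt3 led in livers.

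Control livers and control iMEFs were then set against each other in the same fit. Tissue, culture and count table change together here and cannot be told apart, and the answer also depends on the scale. On TMM factors over the 11693 genes tested in both tissues, which leave out genes that only one tissue expresses, 9 of 10 members were called (82.5% of all genes, 40.9% higher and 41.5% lower). On totals of all reads in genes, a scale added after the values were seen, 9 of 10 were called as well (86.5% of all genes, 23.2% higher and 63.3% lower), and the median log2 fold change of all genes was -0.91, against 0.01 on the TMM scale.

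Of the members, 7 kept direction and call on both scales, which is 5 higher and 2 lower in livers. Sirt3 was higher in control livers by 4.82 on the log2 scale with TMM factors (SE 0.14) and by 3.90 with totals. Sirt5 was higher by 2.68 and 1.76, Sirt7 by 2.38 and 1.46, Nmnat1 by 2.05 and 1.13, and Nmnat3 by 1.84 and 0.92. Sirt1 had log2 fold changes of -0.81 with TMM factors and -1.74 with totals, and Sirt6 of -1.08 and -1.999. Sirt2 turned round, with 0.59 on TMM factors and -0.34 on totals, and was called on both. Sirt4 was called on TMM factors (1.36) and not on totals (0.44), and Nampt was called on totals (-1.014) and not on TMM factors (-0.09).

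The NAD+ economy around the sirtuins was followed in lists of related genes, whose counts stand beside the share of all 13561 genes called in iMEFs, 39.8%, with 18.6% higher and 21.2% lower. In livers no gene of any of these lists passed the test, where 0.343% of all 14270 genes tested were called. Of 16 other genes of NAD+ synthesis, 7 were tested in iMEFs and 2 rose and 2 fell (57.1% called, beside 39.8% of all genes). Naprt, which starts NAD+ synthesis from nicotinic acid, had the largest change, with 2.71 ± 0.60 CPM in senescent and 6.51 ± 1.09 CPM in control iMEFs (SD, n = 3 each; log2 fold change -1.26, SE 0.21, adjusted p = 0.00053 in edgeR). Nmrk1, the nicotinamide riboside kinase, had a log2 fold change of -0.53, while Nmnat2, the Golgi and cytosolic NMNAT, had 0.59 and Nt5e, which encodes the surface nucleotidase CD73, had 0.47. The effect on Naprt differed between the tissues, with livers minus iMEFs at 1.24 (adjusted p = 0.00084 in edgeR). So did that on Nmrk1 at 0.79 (adjusted p = 0.0106 in edgeR). These were 2 of the 6 genes of this list tested in both tissues (33.3%, beside 17.1% of all genes). Of the genes that make NAD+ from tryptophan, Tdo2, Kmo, Kynu, Haao and Qprt averaged at most 0.0728 CPM in either iMEF group. They averaged at least 180.2 CPM in either liver group. Ido2 had 0.681 CPM in senescent and 0.0686 CPM in control iMEFs, and 82.1 CPM in senescent and 85.9 CPM in control livers. Ido1 had 0 reads in livers, and Afmid had 2.15 CPM in senescent and 1.48 CPM in control iMEFs. Haao, which makes quinolinate, had 501.1 ± 87.4 CPM in senescent and 514.1 ± 21.5 CPM in control livers, and Tdo2, the first enzyme, had 706.6 ± 175 CPM in senescent and 697.5 ± 68.5 CPM in control livers.

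Among enzymes that use up NAD+ or clear nicotinamide, 16 were tested in iMEFs, 6 fell and none rose, which is 37.5% called and near the 39.8% of all genes (21.2% lower). The median log2 fold change was -0.19, beside 0.00 over all genes. All 6 belong to the PARP family of ADP-ribosyltransferases, as do most of the tested genes of this list, so the calls do not single out that family. Parp9 had 24.8 ± 2.17 CPM in senescent and 40.8 ± 1.008 CPM in control iMEFs (log2 fold change -0.72, SE 0.09, adjusted p = 8.7e-05 in edgeR). Parp12, Parp10 and Parp14 had log2 fold changes of -0.56, -0.64 and -0.58, and Parp11 and Parp3 of -0.35 and -0.33. The effect differed between the tissues for Parp9, Parp10 and Parp12 (livers minus iMEFs 0.62, 0.82 and 0.55, adjusted p = 0.0156, 0.0044 and 0.011 in edgeR). That is 3 of 15 genes of this list tested in both tissues, a share near the 17.1% of all genes. Parp1, the main DNA-damage PARP, had 169.9 ± 10.9 CPM in senescent and 170.0 ± 10.6 CPM in control iMEFs, with a log2 fold change of 0.00. In livers, Cd38, an ecto-enzyme that breaks down NAD+, had 24.3 ± 2.88 CPM in senescent and 19.4 ± 2.07 CPM in control animals (log2 fold change 0.33, unadjusted p = 0.0179 and adjusted p = 0.541 in edgeR). Macrophage markers summed to 387.5 to 487.7 CPM in senescent livers and 213.7 to 475.8 CPM in control livers, with 8 of 8 markers detected, and their part in the Cd38 value was not tested. Of the kinases and carriers of NAD+, 1 of 3 tested in iMEFs passed (33.3%, beside 39.8% of all genes), Nadk, which makes NADP+ from NAD+, with a log2 fold change of 0.26 (adjusted p = 0.013 in edgeR).

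The zinc-dependent histone deacetylases, which need no NAD+, were the other deacetylase family. Of 11 tested in iMEFs, 6 fell and none rose (54.5% called, beside 39.8% of all genes, 21.2% lower), with a median log2 fold change of -0.26, beside 0.00 over all genes. Hdac5 had 79.0 ± 6.97 CPM in senescent and 131.4 ± 12.0 CPM in control iMEFs (log2 fold change -0.73, SE 0.09, adjusted p = 6.6e-05 in edgeR). Hdac4, Hdac8, Hdac11 and Hdac7 had log2 fold changes of -0.66, -0.68, -0.59 and -0.41, and Hdac3 of -0.26. The effect differed between the tissues for Hdac5, Hdac7 and Hdac8 (adjusted p = 0.0351, 0.0496 and 0.0276 in edgeR). That is 3 of 11 tested in both tissues (27.3%, beside 17.1% of all genes). Of the 4 regulators of SIRT1 tested, 1 rose and 2 fell (75.0% called, beside 39.8% of all genes). Rps19bp1 (AROS), an activator of SIRT1, rose by 0.65 on the log2 scale (SE 0.11, adjusted p = 0.00044 in edgeR). Hic1, a repressor of Sirt1 transcription, fell by 0.64 and Ccar2 (DBC1), an inhibitor of SIRT1, fell by 0.27. Elavl1, the regulator that was not called, had a log2 fold change of 0.04 (adjusted p = 0.715 in edgeR). Among the 4 regulators, the effect differed between the tissues for Rps19bp1 alone (25.0%, beside 17.1% of all genes). Livers minus iMEFs was -0.68 for it (adjusted p = 0.0095 in edgeR).

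Genes of sirtuin substrates, whose acylation RNA-seq cannot show, were counted too. Of 15 tested nuclear and cytosolic substrates, 4 rose and 4 fell in iMEFs (53.3% called, beside 39.8% of all genes). Ppargc1a, the mitochondrial biogenesis coactivator that SIRT1 deacetylates, had 4.02 ± 1.13 CPM in senescent and 0.692 ± 0.264 CPM in control iMEFs (log2 fold change 2.54, SE 0.33, adjusted p = 7.4e-05 in edgeR). These values rested on few reads, 210 in all senescent and 39 in all control iMEFs. Trp53, Npm1 and Hsf1 rose by 0.29, 0.30 and 0.24. Stat3, Acss2 and Hif1a had log2 fold changes of -0.67, -0.80 and -0.39. The effect differed between the tissues for 6 of 15 tested in both (40.0%, beside 17.1% of all genes), 2 positive and 4 negative. Ppargc1a was among the negative, with livers minus iMEFs at -2.43 (adjusted p = 0.00041 in edgeR). Of 11 tested mitochondrial substrates, 2 rose and 3 fell (45.5% called, near the 39.8% of all genes). Idh2, the mitochondrial isocitrate dehydrogenase that SIRT3 deacetylates, had 144.2 ± 8.33 CPM in senescent and 273.3 ± 14.1 CPM in control iMEFs (log2 fold change -0.92, SE 0.08, adjusted p = 2.7e-06 in edgeR). Dlat, a pyruvate dehydrogenase subunit, and Glud1, the glutamate dehydrogenase, had log2 fold changes of 0.46 and 0.30. For mitochondrial substrates the difference between the tissues was called in 3 of 11 (27.3%, beside 17.1% of all genes), 2 positive and 1 negative. In livers, the mitochondrial substrate gene Aldh2 had 2958 ± 172 CPM in senescent and 2316 ± 86.1 CPM in control animals, with a log2 fold change of 0.35 (adjusted p = 0.135 in edgeR).

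**Figure D4:**
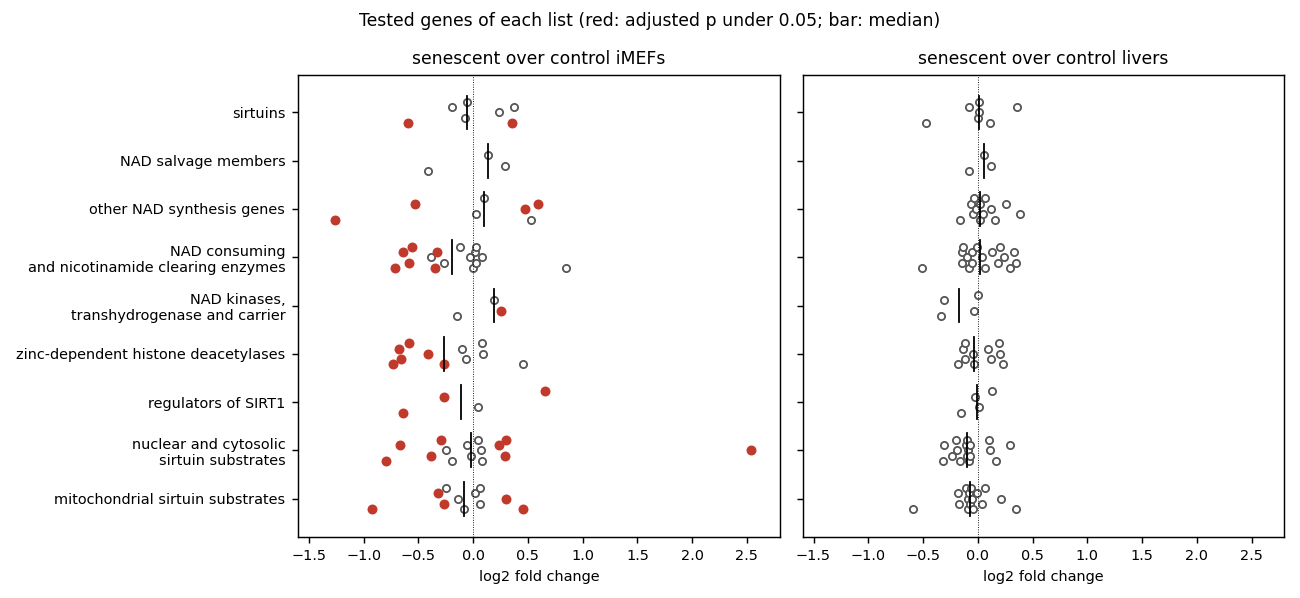
Log2 fold change (x axis) of each tested gene of the lists (rows), senescent over control iMEFs on the left and senescent over control livers on the right. Red points passed an adjusted p of 0.05 in edgeR and black bars are list medians. In iMEFs the calls among NAD+ consumers (6) and zinc-dependent deacetylases (6) all lie below 0. No liver point is red, where 0.343% of all genes tested in livers were called.

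Several members share a promoter region or exons with a neighbour, and the strand setting of the counting is not given in the sources used here, so reads from opposite strands cannot be told apart. Sirt3 overlaps Psmd13, a proteasome subunit gene on the opposite strand, by 342 exonic bases, and their starts lie 341 bases apart. Psmd13 had 59.8 ± 3.23 CPM in senescent and 55.4 ± 3.20 CPM in control livers, and 105.6 ± 5.53 CPM in senescent and 117.6 ± 2.76 CPM in control iMEFs. Whether reads of Psmd13 entered the Sirt3 count was not tested. Sirt3 also shares 418 exonic bases with Ric8a, and Sirt2 shares 42 with Nfkbib. Nmnat1 starts 27 bases from Lzic, on the opposite strand. Lzic had 38.8 ± 3.52 CPM in senescent and 32.1 ± 2.13 CPM in control iMEFs (log2 fold change 0.27, adjusted p = 0.0407 in edgeR), and 11.1 ± 1.87 CPM in senescent and 6.42 ± 0.67 CPM in control livers (log2 fold change 0.78, adjusted p = 0.0791 in edgeR). Genes nested in or next to the others were scarce, with 0 reads in Gm16145 and Mir6936 and at most 2.83 CPM on average in Gdap10, Tmem274 or Gm28530. Sirt6 starts 743 bases from Ankrd24 and the GENCODE start of Sirt1, which is not the RefSeq start used for its promoter window, lies 739 bases from that of Dnajc12. Neither of these 2 neighbours passed the test in either tissue.

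For the members called in iMEFs, the genes with the most similar profiles over the 14 libraries were found as those with the smallest root-mean-square difference in log2 CPM, with 0.5 CPM added, after each gene was centred on its control mean within a tissue. The nearest to Sirt6 were Tmem39a (0.13), Kctd7 (0.16) and Plekho2 (0.17), where the median over all 11693 genes was 0.45. The nearest to Sirt1 were Pcgf3 (0.07), Zbtb44 (0.09) and Mtmr1 (0.10), where the median was 0.34. Their log2 fold changes in iMEFs were -0.43, -0.64 and -0.37 for the genes near Sirt6, and 0.29, 0.23 and 0.32 for those near Sirt1, all but Zbtb44 past the threshold. This likeness, and the calls of the near genes, follow from the same libraries and were not tested. A flat profile at the control means lay 0.39 from Sirt6 and 0.25 from Sirt1, also below those medians.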

How the data were processed

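RNA was measured in 14 libraries, 6 from iMEFs and 8 from livers, and the labels gave each sample its group. The submitters' processing notes name STAR, featureCounts and mm10, and by the study's methods a sequencing provider did the alignment and supplied the raw count tables. The deposited raw counts of reads per gene were used here. Their versions, the annotation release and the strand setting were not given in the sources used here. Deposited copies of the counts divided by size factors were not used, and 0 columns of per-sample values were left unmapped.

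Genes were filtered with filterByExpr, scaled by TMM factors within a tissue and tested with the quasi-likelihood test of edgeR 4.0.16 (R 4.3.3) at a Benjamini-Hochberg adjusted p of 0.05 over all genes tested. The difference of the effects, and control livers against control iMEFs, came from 1 fit over 14 libraries on the 11693 genes tested in both tissues, whose reads alone set the library sizes. This lifts every liver against iMEF value relative to totals of all reads. DESeq2 1.42.0, limma-voom (limma 3.58.1), RLE factors, no filter, a threshold of 0.01, a replicate block and leaving out each library were alternatives. Totals with no factor, and length by the longest coding transcript, were chosen after seeing the data. Length was otherwise the merged exons of GENCODE M21, which matched 54495 of the 54532 gene IDs. The fits were tested on simulated data.

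Members and gene lists were chosen with earlier results of these data known. Named genes were all members, Terf2, up to 4 genes a list and tissue by smallest p, genes called against their list's majority, neighbours overlapping a member or starting within 1 kb of it, and the 3 profiles nearest each called member. Parp1, Parp3, Parp11, Hdac3, Hdac11, Tdo2, Haao, Kmo, Kynu, Qprt, Ido1, Ido2, Afmid, Trp53, Npm1 and Hsf1 were named after their values were seen. Each library of a group is a replicate, called biological in the study's methods. Replicates differed by more than sampling noise, measured as chi-square per degree of freedom over genes. Among senescent iMEFs this was 4.97 between replicates 1 and 2, and 27.1 and 32.8 between these and replicate 3. It ran from 4.25 to 10.5 among control iMEFs and from 14.1 to 39.8 between livers of a group.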

Additional observations from a re-analysis of the deposited data

Results flagged for a closer look

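Of 20 groups of 4 livers checked, 2 groups for each member, 1 had a library far from the other 3. Sirt6 had 6.83 CPM in control liver replicate 4, against 3.29, 3.69 and 3.89 CPM in the other control livers. Chance flags about 1 in 20 such groups, but the groups come from the same livers and are not independent. Control liver replicate 4 was also the highest control for Sirt5, at 19.1 CPM, just short of a flag. The log2 fold change of Sirt6 in livers was -0.47 with this library and -0.18 without it, and it passed the threshold in neither fit.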

How the results depend on the processing

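In iMEFs, Sirt6 was called under every alternative, and Sirt1 under all but 1 of them (adjusted p = 0.0506 without control replicate 1 in edgeR). Sirt7 passed with DESeq2 (0.0350), RLE factors (0.0414), no filter (0.0222) and totals (0.0235), and without senescent replicate 1 (0.0310) or 2 (0.0283). Leaving out 1 library at a time gave 1 to 3 members called in iMEFs, 0 in livers, 0 to 1 for the difference and 9 for control livers against control iMEFs. Uncalled values that changed sign ran from -0.23 to 0.078 (Sirt3), -0.043 to 0.47 (Sirt4) and -0.27 to 0.14 (Sirt5) in iMEFs. In livers they ran from -0.20 to 0.021 (Sirt1), -0.014 to 0.034 (Sirt2), -0.056 to 0.042 (Sirt3), -0.13 to 0.10 (Sirt7), -0.18 to 0.0061 (Nampt) and -0.019 to 0.16 (Nmnat3). For the difference they ran from -0.075 to 0.22 (Sirt3), -0.10 to 0.41 (Sirt4) and -0.019 to 0.38 (Sirt5). Sirt3 in livers, near 0, was also -0.00053 with DESeq2, -0.00085 with RLE factors, -0.00054 with no filter, -0.00042 with limma-voom and -0.0018 with the replicate block. The cause was not tested for any of these.

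Sirt2 in control livers against control iMEFs was -0.34 on totals, where 2717 genes were higher and 7400 lower, against 4788 and 4857 on TMM factors. That scale keeps genes of a single tissue in the library size. Over all genes, 5400 were called in iMEFs (3385 at 0.01), 49 in livers (30 at 0.01, 139 with DESeq2, 130 with no filter) and 2000 for the difference (899 at 0.01, and 1278 without iMEF control replicate 2).

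Samples with the same replicate number did not deviate together in general (correlations from -0.171 to 0.237). The highest value, 0.237, was that of the livers numbered 4. Groups of 3 or 4 libraries are too small to settle whether the numbers pair the samples. With the replicate block, 2 members and 4696 genes were called in iMEFs, 0 and 42 in livers, 0 and 1842 for the difference, and 9 and 8592 between control tissues. Merged exons in place of a length from the count tables, planned as an alternative, became the main length, so this was not run.

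The members with the fewest reads were Sirt3, Sirt5 and Nmnat3 in iMEFs, at 57 to 105 reads a library, and Sirt6 in livers, at 44 to 123. The iMEF comparison cannot separate 4HT or Cre from loss of TRF2, and the liver comparison covers whole tissue.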

Other observations

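Circadian clock genes, of which Nampt is a target in mouse liver, were followed as 1 further list. In iMEFs 3 of 17 tested rose and 7 fell (58.8% called, beside 39.8% of all genes), with a median log2 fold change of -0.25. Clock, the partner of BMAL1, had 123.1 ± 6.96 CPM in senescent and 81.8 ± 5.55 CPM in control iMEFs (mean ± SD of 3 libraries), with a fitted log2 change of 0.59. Nr1d1, the repressor REV-ERBα, had 34.96 ± 0.90 CPM in senescent and 22.3 ± 2.15 CPM in control iMEFs, a log2 fold change of 0.65 (adjusted p = 0.00027 in edgeR). Dbp, a clock output transcription factor, had 5.66 ± 0.99 CPM in senescent and 10.5 ± 1.548 CPM in control iMEFs, a log2 fold change of -0.90 (adjusted p = 0.0012 in edgeR), and Bhlhe40 had -0.37. In livers none of 18 was called, where 0.343% of all genes tested were. Nr1d1 ranged there from 13.8 to 84.4 CPM in senescent and from 22.8 to 125.0 CPM in control animals, and the hour of collection is not given in the sources used here.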
